A study of Mus musculus with 86 samples.

Results

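Sort1, Poldip3, Dnajc5 and Tnik are genes with alternative exons known to respond to the RNA-binding protein TDP-43, and their expression was followed transcript by transcript. All 33 annotated transcripts of the 4 genes were taken, 3 of Sort1, 6 of Poldip3, 6 of Dnajc5 and 18 of Tnik, among 134952 transcripts of 53664 genes in the CAD and N2A tables and 133395 transcripts of 52631 genes in the tables of the transgene CAD lines. Poly(A) RNA was sequenced from the soma and neurites of mouse CAD and N2A neuronal cells, which were separated mechanically on porous membranes. In the CAD and N2A knockout lines, each grown from a single cell, the endogenous Tardbp alleles had been cut with CRISPR/Cas9 in every group, and an HA-tagged TetOff TDP-43 transgene was the remaining source of the protein. Wild-type samples were these cells without doxycycline, and knockout samples were the same cells given 2 µg/mL doxycycline for 48 h per the labels, so the drug and the loss of TDP-43 cannot be told apart. The study's methods give a lower dose than the labels for this step. A separate set of CAD cells kept their endogenous Tardbp alleles and carried a doxycycline-inducible, HA-tagged WT or Q331K TDP-43 transgene with a synthetic 3′ UTR. Q331K is a substitution found in amyotrophic lateral sclerosis. For these cells the labels state no doxycycline, although the study's methods induced the transgene with it. The study reports that induction lowered the endogenous TDP-43, leaving the transgene as the source of most of the protein. Each of the 12 groups (cells, genotype and compartment) had 3 libraries, 36 in all, which the labels number as replicates. The labels do not say that these were separate cultures, so p-values measure the spread between these samples.

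TDP-43 is a mainly nuclear protein that binds GU-rich RNA and decides whether many exons are spliced into the mature message. Some exons depend on it for inclusion and others are repressed by it, so that its loss shifts the isoforms of a gene without any need for the gene's total level to move. Sort1 encodes sortilin, a sorting receptor of the Golgi and endosomes that also binds progranulin. Poldip3 encodes a partner of DNA polymerase delta and of S6 kinase that works in mRNA translation and export. Dnajc5 encodes cysteine string protein, a chaperone of synaptic vesicles, and Tnik encodes a kinase of the germinal centre family that acts on the cytoskeleton and on Wnt signalling.

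The exons that the results turn on are shown first, because each is the stretch by which the isoforms of a gene differ. The transcript models lie on GRCm38 (mm10), and all sequences are on the strand of the gene. The 87-base exon of Poldip3 (chr15:83137468-83137554, minus strand, gene at chr15:83125976-83149384) is exon 3 of 9 in Poldip3-201 and is skipped in Poldip3-202. The 99-base exon of Sort1 (chr3:108355472-108355570, plus strand, gene at chr3:108284082-108361511) is exon 18 of 21 in Sort1-203 and is skipped in Sort1-201. The 87-base exon of Tnik (chr3:28594907-28594993, plus strand, gene at chr3:28263214-28675858) is exon 14 of 33 in Tnik-205 and is skipped in Tnik-206 and Tnik-207. All 3 lie wholly in coding sequence and have a length divisible by 3, so skipping keeps the reading frame.
Poldip3 87-base exon: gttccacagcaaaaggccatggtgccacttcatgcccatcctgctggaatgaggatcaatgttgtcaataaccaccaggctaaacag
Sort1 99-base exon: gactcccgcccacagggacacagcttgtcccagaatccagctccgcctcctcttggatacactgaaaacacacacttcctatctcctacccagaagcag
Tnik 87-base exon: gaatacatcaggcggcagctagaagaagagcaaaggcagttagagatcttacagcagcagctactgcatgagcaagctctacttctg

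A further 2 exons carry a stop codon and mark transcripts annotated as targets of nonsense-mediated decay, the pathway that degrades messages with an early stop. The 75-base exon of Dnajc5 (chr2:181548926-181549000, plus strand, gene at chr2:181520485-181555133) is exon 5 of 6 in Dnajc5-204. The 104-base exon of Tnik (chr3:28549541-28549644) is exon 8 of 32 in Tnik-207. Their coding bases are given in lower case, with the stop codon in capitals. A 24-base coding exon of Tnik (chr3:28625199-28625222, exon 21 of Tnik-205) and a 53-base exon in the 5′ untranslated region of Dnajc5 (chr2:181521235-181521287, exon 2 of Dnajc5-203) complete the set with a 165-base coding exon of Tnik (chr3:28604176-28604340).
Dnajc5 75-base exon, coding part and stop: gagggcacTGA
Tnik 104-base exon, coding part and stop: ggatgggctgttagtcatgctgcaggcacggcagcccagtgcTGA
Tnik 24-base exon: agctataagaaagctatagatgag

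Both strings of the GU repeat to which TDP-43 binds, TGTGT and GTGTG in DNA letters, were searched on the strand of the gene. They overlap each other, so a repeat counts under both. Among these exons, 1 GTGTG was found, in the 75-base exon of Dnajc5, and at least 1 of the strings stood in 20.6% of all 16076 annotated cassette exons and in 12.9% of those within 10% of that exon's length. The intron after the Sort1 exon, read from the retained-intron transcript Sort1-202, held 1 TGTGT and 2 GTGTG in 660 bases. The intron after the Poldip3 exon, of which Poldip3-205 holds 1780 of 2078 bases, held 5 TGTGT and 1 GTGTG. Of exons of retained-intron transcripts with a like length, 79.4% and 99.2% held at least 1 of the strings, so their presence sets neither intron apart. The number of matches was not compared with a background. The study also counts GUAUG as a TDP-43 motif, which was not searched here.

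The libraries held 9783050 to 32895542 estimated counts each. Tardbp, the gene of TDP-43, was lower in both compartments of both knockout lines. Its level in CAD soma was 884 ± 187 TPM (transcripts per length, scaled to one total in every library, mean ± SD, n = 3) in wild-type and 136 ± 22.1 in knockout cells, with libraries at 669 to 1002 and 115 to 159, and in N2A soma it was 873 ± 113 and 245 ± 15.2. In neurites it was 261 ± 68.5 and 80.5 ± 2.70 TPM in CAD, and 374 ± 115 and 157.5 ± 47.6 in N2A. These are log2 changes of -2.52 and -1.89 in CAD soma and neurites and of -1.78 and -1.41 in N2A (edgeR). Reads of the cut alleles and of the transgene count towards the same gene. In the transgene lines Tardbp stood at 1418 ± 141 TPM with the WT and 1429 ± 44.9 with the Q331K transgene in soma, a log2 difference of -0.02. Of 8 neuronal markers 6 reached 1 TPM in every group, and the markers of astrocytes, oligodendrocytes, microglia, and endothelial cells and fibroblasts (4 genes each) summed to at most 4.55, 12.3, 1.75 and 8.14 TPM in any library. Dbh and Th, markers of the catecholaminergic identity of CAD cells, summed to 11.8 to 22.4 TPM in wild-type and 35.7 to 54.5 TPM in knockout CAD soma, and their part in the CAD results was not tested. Mitochondrially encoded transcripts held 7.76 to 13.2% of TPM in wild-type and 14.5 to 19.2% in knockout N2A soma, and 2.37 to 7.66% and 6.52 to 19.8% in N2A neurites. The nuclear RNAs Neat1 and Kcnq1ot1 fell in N2A soma by 1.5 and 1.13 on the log2 scale (edgeR adjusted p = 0.0258 and 0.032). Malat1 and Meg3, also nuclear, were not called there, at -0.62 and 0.32 (adjusted p = 0.37 and 0.54). In neurites Meg3 was higher in the knockout, by 1.30 in N2A and 1.71 in CAD (adjusted p = 0.0427 and 0.0368). The part of the mitochondrial and nuclear RNAs in the results was not tested. The 10 most abundant transcripts held 15 to 44.0% of all TPM in soma and 21.9 to 73.6% in neurites, so TPM is not compared between compartments.

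The inclusion of an exon is given as PSI, the percentage of the TPM of transcripts with and without it that comes from those with it, and it was tested as a log2 ratio of included to skipped TPM (limma, Benjamini-Hochberg adjustment over all exons tested, FDR 0.05). In CAD soma 3 of 8 exons of the 4 genes differed between knockout and wild-type, where 4.11% of 8392 cassette exons did. In CAD neurites 2 of 8 differed (3.48% of all), in N2A soma 4 of 9 (1.39% of 8549) and in N2A neurites 2 of 9 (0.69%). Poldip3 was called in all 4 comparisons, Tnik in 3, Sort1 in both of N2A and Dnajc5 in CAD soma. The difference between the knockout effects in neurites and soma was tested for the same exons, and 0 of 8 in CAD and 0 of 9 in N2A were called, as were 0.0% of all exons in either line. At an unadjusted p under 0.05, that test counted 479 exons in CAD and 647 in N2A. In these bulk libraries, fewer cells of a kind and less RNA per cell cannot be told apart.

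**Figure D1:**
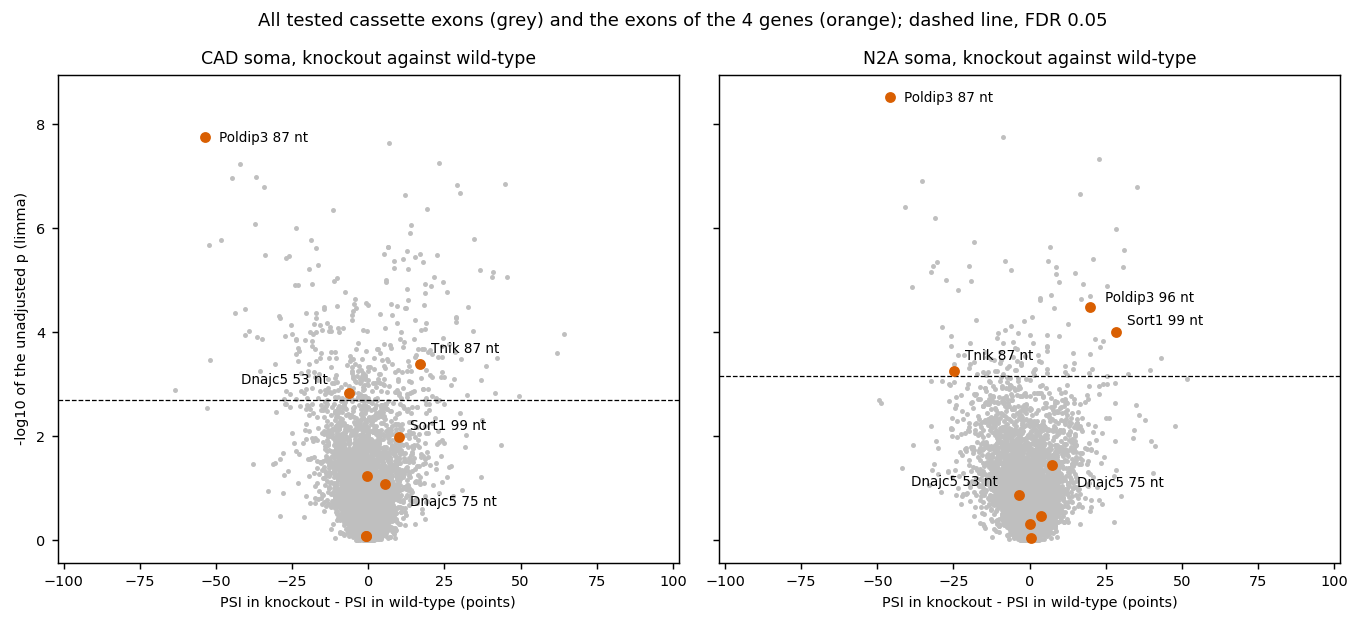
Change in PSI (knockout minus wild-type, in points) against -log10 of the unadjusted p for every cassette exon tested in CAD soma (left) and N2A soma (right). Grey points are all exons, orange points are the exons of the 4 genes, and the dashed line marks an FDR of 0.05. The 87-base exon of Poldip3 is the highest point in both panels, and the 87-base exon of Tnik lies to the right of 0 in CAD and to the left in N2A.

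Poldip3 skipped its 87-base exon about as often as it included it in every knockout group, and rarely in the wild-type. In CAD soma PSI was 95.6, 97.5 and 96.2% in the wild-type libraries and 35.3, 45.3 and 47.6% in the knockout libraries. In CAD neurites it was 96, 96.4 and 91.8% against 43.4, 45.8 and 43.9%. No knockout library came near a wild-type library in either compartment. In N2A soma the wild-type libraries stood at 94.0, 93.3 and 92.2% and the knockout libraries at 44.0, 50.6 and 46.9%. In N2A neurites they stood at 90.7, 89.5 and 90.5% against 53.6, 54.0 and 47.4%. The log2 ratio fell by 5.14 ± 0.34 (SE, n = 3 per group, limma adjusted p = 9.77e-05) in CAD soma and by 4.42 ± 0.34 (adjusted p = 0.000104) in CAD neurites. In N2A it fell by 3.92 ± 0.22 (adjusted p = 2.55e-05) in soma and by 3.08 ± 0.22 (adjusted p = 0.000147) in neurites. By p this exon ranked 1 of 8392 in CAD soma, 6 in CAD neurites, 1 of 8549 in N2A soma and 2 in N2A neurites. The fall was 1.23 larger in CAD than in N2A soma (adjusted p = 0.205) and 1.34 larger in neurites (adjusted p = 0.22), differences that did not pass the test. In N2A neurites the call was lost without replicate 2 or 3 (adjusted p = 0.116 and 0.092), with a log2 ratio of -3.20 and -2.94.

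**Figure D2:**
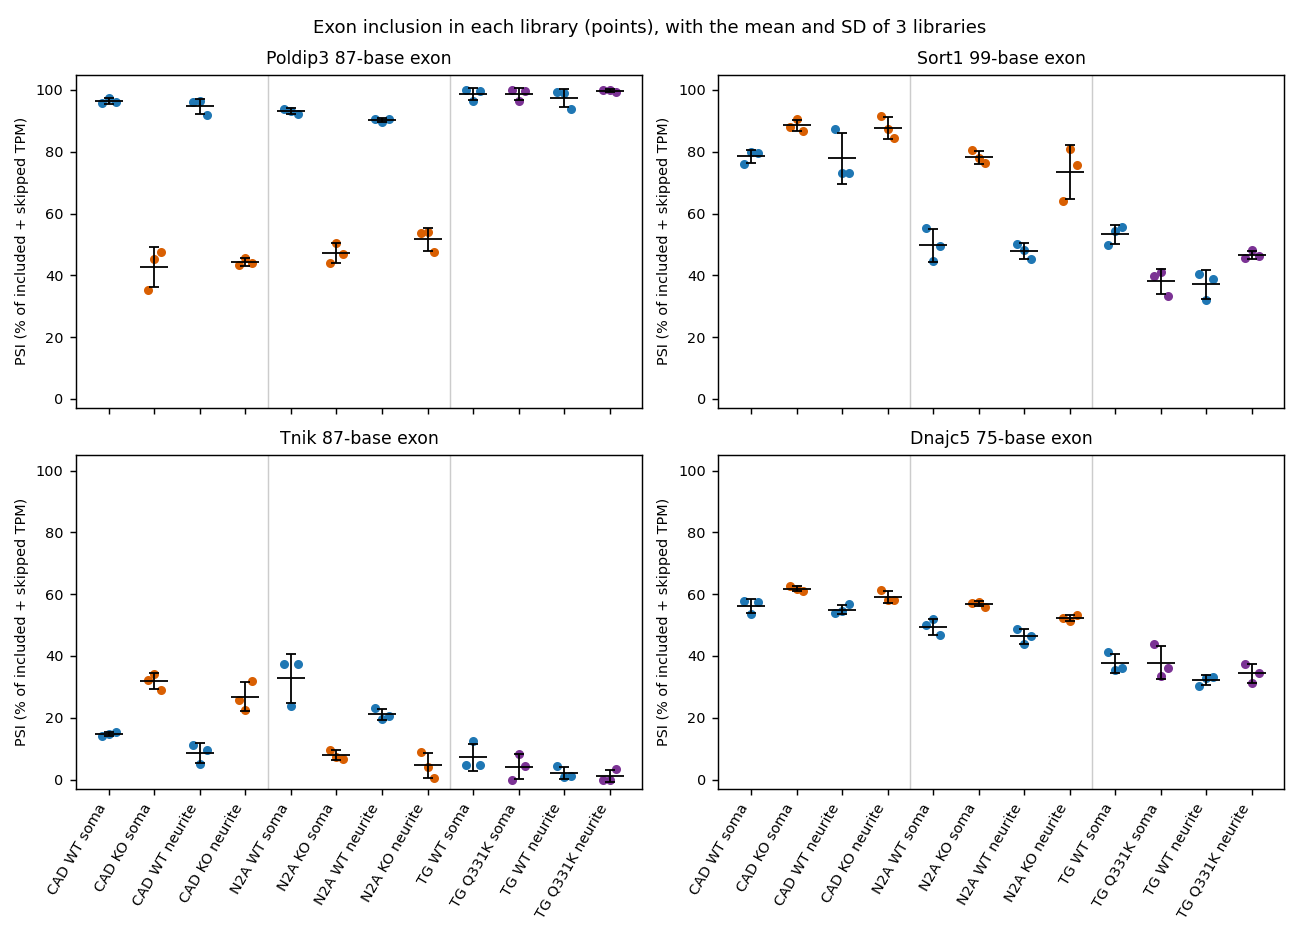
PSI in percent for 4 exons in each library (points), with the mean and SD of 3 libraries per group (bars). WT is blue, KO is orange and Q331K is purple, and TG marks the transgene CAD lines. Poldip3 knockout libraries sit between 35.3 and 54.0% with all others at 89.5% or above, and Tnik moves in opposite directions in the CAD and N2A knockouts.

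The transcripts of Poldip3 exchanged places while the gene stayed level. Poldip3-202, which skips the exon, held 3.17% of the gene's TPM in wild-type CAD soma and 49.6 ± 3.51% in knockout CAD soma. Its share rose from 5.07 to 52.9% in CAD neurites, from 5.40 to 45.4% in N2A soma and from 9.43 to 44.3% in N2A neurites. Usage, the change of a transcript relative to the abundance-weighted change of its gene, was tested by edgeR over all transcripts of genes with at least 2. By this test Poldip3-202 rose by 4.01 ± 0.21 on the log2 scale in CAD soma (adjusted p = 1.19e-18), and by 3.42 ± 0.20, 3.01 ± 0.17 and 2.31 ± 0.16 in CAD neurites, N2A soma and N2A neurites. Poldip3-201, which carries the exon, fell by 1.14, 1.07, 0.91 and 0.80 in the same order. Its share of the gene's TPM went from 85.24 to 37.28%, from 90.77 to 42.18%, from 73.45 to 40.65% and from 87.05 to 47.42%. Over the 4 genes, 3 of 20 transcripts tested changed in usage in CAD soma (0.907% of 41801 transcripts did), 4 of 20 in CAD neurites (1.9%), 3 of 23 in N2A soma (0.627% of 41615) and 4 of 23 in N2A neurites (0.87%). Poldip3 itself was not called at the gene level in any knockout comparison, with log2 changes of -0.04, 0.07, 0.17 and -0.15.

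**Figure D3:**
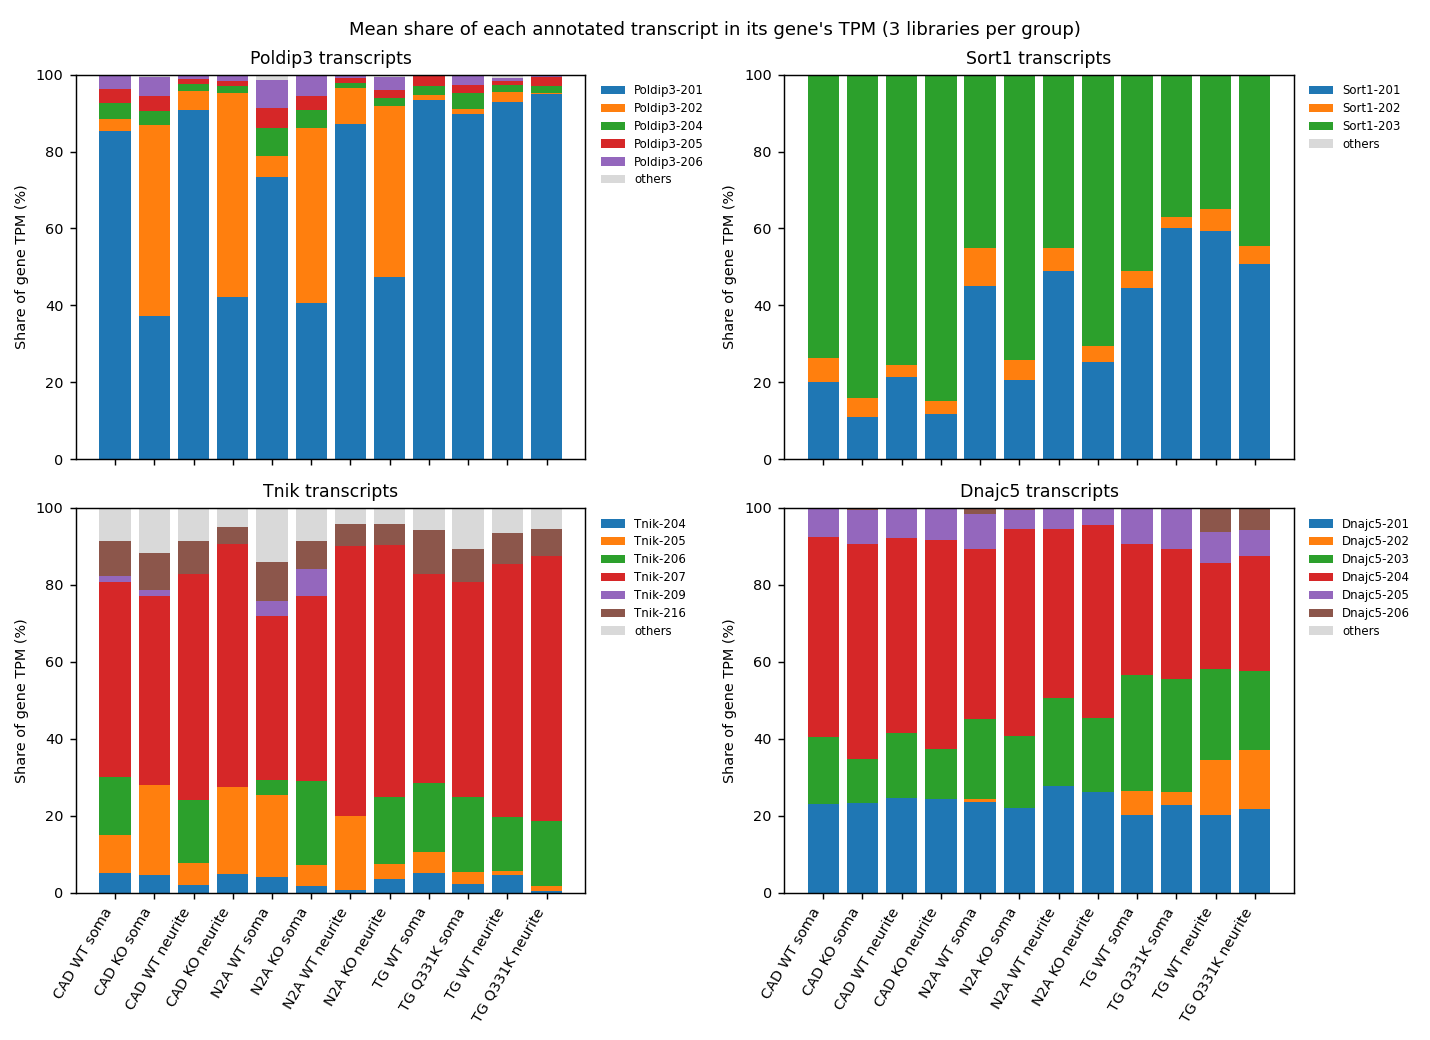
Mean share of each annotated transcript in its gene's TPM (percent, 3 libraries per group), stacked for the 12 groups. Poldip3-202 (orange) takes 44.3 to 52.9% in the 4 knockout groups and at most 9.43% elsewhere, and the shares of Tnik-205 (orange) and Tnik-206 (green) differ in opposite directions in CAD and N2A.

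A second Poldip3 exon of 96 bases (chr15:83135294-83135389) joins exons of Poldip3-202 that Poldip3-203 skips, and it passed the level filter in N2A alone. Its PSI was 79.2 ± 4.43% in wild-type and 99.1 ± 0.733% in knockout N2A soma (log2 ratio 4.72 ± 0.69, limma adjusted p = 0.0076). The included transcript here is Poldip3-202, so this ratio carries that transcript's rise. The skipped side, Poldip3-203, had only 9.42, 12.2 and 10.9 estimated counts in wild-type and 1.91, 1.85 and 9.33 in knockout N2A soma. The call was lost when transcripts with other flanking sites were let in (adjusted p = 0.235) and with a pseudocount of 0.01 TPM (adjusted p = 0.195).

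Sort1 gained its 99-base exon in the knockout, and this passed the test in N2A. In N2A soma PSI was 55.3, 44.5 and 49.4% in the wild-type and 80.5, 78.0 and 76.2% in the knockout libraries. In N2A neurites it was 50.2, 48.3 and 45.3% against 63.9, 80.7 and 75.8%. The groups did not overlap in either compartment. The log2 ratio rose by 1.85 ± 0.31 in soma (n = 3 per group, limma adjusted p = 0.0183) and by 1.59 ± 0.31 in neurites (adjusted p = 0.0489). The neurite call sat at the threshold and was lost when exons of any level were tested (adjusted p = 0.0795), and both calls were lost with any replicate left out. In CAD the exon already stood at 76.1, 80.0 and 79.6% in wild-type soma and at 88.2, 90.6 and 86.9% in knockout soma. In CAD neurites the wild-type libraries stood at 87.3, 73.3 and 73.0% and the knockout libraries at 91.6, 87.2 and 84.5%. The CAD soma groups did not overlap, those of neurites did, and the log2 ratios of 1.07 and 0.98 did not pass the test (adjusted p = 0.129 and 0.188), although both passed with a pseudocount of 1 TPM (adjusted p = 0.00782 and 0.0371). The effects in the 2 lines differed by -0.79 in soma and -0.62 in neurites, CAD minus N2A, which did not pass the test (adjusted p = 0.528 and 0.894).

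The Sort1 gene level rose as well. Sort1-203, the transcript with the exon, went from 10.7 ± 2.20 to 17.9 ± 1.94 TPM in CAD soma and from 2.35 ± 0.392 to 4.48 ± 0.312 TPM in CAD neurites. It went from 13.7 ± 1.51 to 33.1 ± 1.15 TPM in N2A soma and from 2.12 ± 0.559 to 7.59 ± 3.04 TPM in N2A neurites. Sort1-201, without the exon, was at 2.88 and 2.33 TPM in wild-type and knockout CAD soma and at 13.8 and 9.24 TPM in N2A soma. In neurites it was at 0.711 and 0.634 TPM in CAD and at 2.34 and 2.53 TPM in N2A. The usage of Sort1-201 fell by 1.15 ± 0.20 in N2A soma (edgeR adjusted p = 0.00194) and by 0.95 ± 0.20 in N2A neurites (adjusted p = 0.0174). The usage of Sort1-203 was not called in any knockout comparison (adjusted p = 1.0 in both of CAD, 0.0745 in N2A soma and 0.134 in N2A neurites). At the gene level, Sort1 rose by 0.75 ± 0.07 on the log2 scale in CAD soma (edgeR adjusted p = 2.43e-07) and by 0.54 ± 0.07 in CAD neurites. In N2A it rose by 0.69 ± 0.09 in soma and 0.95 ± 0.09 in neurites. Sort1 was the 1 gene of 4 called in CAD soma (32.7% of 17343 genes were called) and in CAD neurites (36.1%). In N2A, 2 of 4 were called in N2A soma (29.3% of 17912), Sort1 and Tnik, and 2 of 4 in N2A neurites (21.0%), Sort1 and Dnajc5. Gene-level calls were frequent throughout these comparisons, and the Sort1 calls were kept without each replicate in turn.

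**Figure D4:**
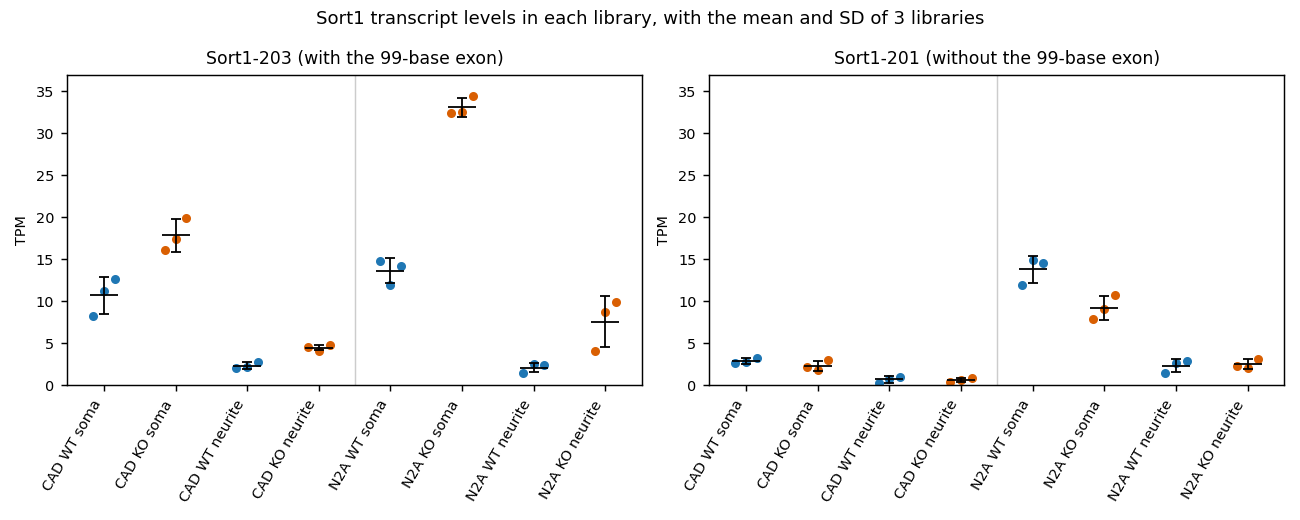
TPM of the Sort1 transcripts with (left) and without (right) the 99-base exon in each CAD and N2A library, with the mean and SD of 3 libraries. Blue is wild-type and orange is knockout. Sort1-203 is higher in each knockout group, with means of 33.1 against 13.7 TPM in N2A soma, whereas Sort1-201 goes from 13.8 to 9.24 TPM there.

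The 87-base exon of Tnik moved in opposite directions in the knockouts of the 2 lines. In CAD soma PSI was 14.1, 14.8 and 15.5% in wild-type and 32.3, 34.1 and 28.9% in knockout libraries. In CAD neurites it was 11.3, 5.11 and 9.71% against 25.8, 22.7 and 32.0%. All CAD knockout libraries thus lay above all CAD wild-type libraries. In N2A soma it was 37.3, 23.7 and 37.4% in wild-type and 9.59, 7.42 and 6.58% in knockout libraries. In N2A neurites it was 23.2, 19.7 and 20.6% against 8.86, 4.17 and 0.642%. Here all knockout libraries lay below all wild-type libraries. The log2 ratio rose by 1.40 ± 0.28 in CAD soma (n = 3 per group, limma adjusted p = 0.0187) and by 1.76 ± 0.28 in CAD neurites (adjusted p = 0.00601). It fell by 2.43 ± 0.50 in N2A soma (adjusted p = 0.0454), and in N2A neurites the value of -2.36 ± 0.50 did not pass the test (adjusted p = 0.0789). The difference between the lines, tested in a fit of all 24 CAD and N2A libraries that was added after the values were seen, was 3.83 ± 0.59 in soma (limma adjusted p = 0.00314) and 4.12 ± 0.59 in neurites (adjusted p = 0.00245). Such a difference was called for 0.545% of 7886 exons in soma and 0.292% in neurites, and for 1 of 8 member exons in each. With 2 libraries per group the calls in CAD were lost whichever replicate was left out, as were those in N2A soma and of the difference, and the N2A soma call was also lost with a pseudocount of 0.01 TPM (adjusted p = 0.183).

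Among the transcripts behind this ratio are Tnik-205, which has the exon, and Tnik-206, which lacks it. Both are protein-coding, and both carry the 24-base exon. Tnik-206 held 16.2, 15.1 and 14% of the gene's TPM in wild-type CAD soma and was listed at 0 in all knockout CAD libraries of both compartments. In wild-type CAD neurites it held 15.4, 19.5 and 14.4%. In N2A it was at 0, 11.2 and 0% in wild-type soma and at 19.7, 22.4 and 23.7% in knockout soma. In N2A neurites it was listed at 0 in the wild-type libraries and at 15.7, 18.0 and 18.7% in the knockout libraries. Usage of Tnik-206 was called in CAD soma (edgeR adjusted p = 3.4e-14), CAD neurites (adjusted p = 4.98e-13) and N2A neurites (adjusted p = 7.57e-05). Usage of Tnik-205 rose in CAD neurites, where its share was 5.73% in wild-type and 22.5% in knockout libraries (edgeR adjusted p = 0.00138). In the other comparisons its usage was not called, with shares of 10.1 and 23.3% in CAD soma (adjusted p = 0.148), 21.4 and 5.47% in N2A soma (adjusted p = 0.756) and 19.3 and 3.87% in N2A neurites (adjusted p = 0.456). The values behind these shares were low, with Tnik-205 at 0.292 to 5.07 TPM in group means of CAD and at 0.180 to 4.48 TPM in N2A. The deposited tables hold no inferential replicates, so the error of this division was not tested. The 24-base exon, which both transcripts share, was at 31.7 and 30.8% in wild-type and knockout CAD soma and at 35.3 and 35.7% in N2A soma, and was not called for genotype.

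The largest share of Tnik in every group belonged to Tnik-207, the transcript with the stop codon in its 104-base exon, at 42.8 to 70.0% of the gene's TPM. That exon did not pass the test in any knockout comparison, with PSI between 57.8 and 76.2% in the group means of CAD and N2A. Tnik-207 ends at chr3:28670585, beyond Tnik-205 (28668223) and Tnik-206 (28667982), so its share and this PSI also draw on reads of that longer 3′ end. Tnik-201 reaches further but held at most 1.81% of the gene's TPM in any group mean. The part of this stretch in the values was not tested. The 165-base exon of Tnik was included at 99.6 to 100% in the means of all groups. The gene level of Tnik rose by 0.32 ± 0.07 on the log2 scale in N2A soma (edgeR adjusted p = 0.003), a call lost without replicate 2 (adjusted p = 0.107), and was not called in the other knockout comparisons.

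The 75-base exon of Dnajc5, which holds the stop codon, passed the test in no knockout comparison. It stood at 57.8, 53.6 and 57.4% in wild-type and 62.5, 61.7 and 60.9% in knockout CAD soma, and at 53.9, 54.5 and 56.7% against 61.4, 58.1 and 58.1% in CAD neurites. In N2A soma it stood at 49.9, 51.9 and 46.8% against 57.2, 57.4 and 56.0%, and in N2A neurites at 48.8, 43.9 and 46.6% against 52.3, 51.4 and 53.3%. The knockout libraries lay above the wild-type libraries in all 4 comparisons. Groups that do not overlap were seen for 19.8% of all exons in CAD soma, 17.9% in CAD neurites, 17.1% in N2A soma and 13.9% in N2A neurites, and in all 4 comparisons for 180 of 7886 exons tested in both lines (2.28%). The log2 ratios of 0.32, 0.24, 0.42 and 0.34 did not pass the test (limma adjusted p = 0.362, 0.587, 0.267 and 0.661). The two-sided exact permutation test gave p = 0.1 in each, the smallest it can give for 3 against 3. Dnajc5-204, the transcript with this exon, had the largest mean share of Dnajc5 in each of the 12 groups, at 27.7 to 55.9% of the gene's TPM.

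The 53-base exon in the 5′ untranslated region of Dnajc5 fell in CAD soma from 17.6, 19.1 and 19.3% to 12.2, 11.4 and 13.7%, a log2 ratio of -0.69 ± 0.16 (n = 3 per group, limma adjusted p = 0.0404). The groups did not overlap, but the call was lost without replicate 1, 2 or 3 (adjusted p = 0.195, 0.392 and 0.254). In CAD neurites its mean PSI was 18.2 and 14.3%, in N2A soma 23.3 and 19.8%, and in N2A neurites 24.3 and 20.2%, none of which passed the test. The gene level of Dnajc5 fell by 0.32 ± 0.08 in N2A neurites (edgeR adjusted p = 0.0135), a call lost without replicate 2 or 3 (adjusted p = 0.108 and 0.0821). It was not called in the other knockout comparisons.

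Whether Q331K acts on these exons was asked by comparing the transgene lines. Of 8 member exons, 0 differed between Q331K and WT in soma (0.0966% of 9316 exons did) and 0 in neurites (0.0322%). Of 19 member transcripts, 0 changed in usage in soma (0.198% of 29230 did) and 0 in neurites (0.318%). Of the 4 genes, 0 were called in soma or neurites, as were 0.0% of 13940 genes by edgeR, against 995 and 1372 genes at an unadjusted p under 0.05 and 11 and 47 calls by DESeq2. The 87-base exon of Poldip3 was included at 94.0 to 100% in every transgene library. The Sort1 exon stood in soma at a PSI of 49.9, 54.4 and 55.5% with the WT and 39.7, 41.0 and 33.3% with the Q331K transgene. In neurites it was 40.5, 31.9 and 38.7% with WT and 45.7, 48.2 and 46.4% with Q331K. The Sort1 groups did not overlap in either compartment, lower with Q331K in soma and higher in neurites. Groups that do not overlap were seen for 1 of 8 member exons in soma, where 6.87% of all exons showed them, and for 2 of 8 in neurites, where 6.24% did, the other being the 87-base exon of Poldip3 at means of 97.4% with WT and 99.8% with Q331K. The Sort1 log2 ratios of -0.89 ± 0.26 and 0.57 ± 0.26 did not pass the test (limma adjusted p = 0.684 and 0.999). Their difference, 1.45 ± 0.36, did not pass either (adjusted p = 0.641), and was called for 0 of 8 member exons and 0.0537% of all exons.

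The CAD soma groups can be set side by side by their level of Tardbp RNA. The knockout and transgene lines were made, grown and sequenced as separate experiments, which cannot be told apart from the Tardbp level. This RNA level is not a measure of the protein. In the study's immunoblots TDP-43 was not detected after 48 h of doxycycline, and total TDP-43 was about equal with and without transgene induction. At 136, 884 and 1418 TPM of Tardbp (knockout, wild-type and WT transgene) the Poldip3 87-base exon was at 42.7, 96.4 and 98.7%. The Sort1 exon was at 88.5, 78.6 and 53.3%. The Dnajc5 75-base exon was at 61.7, 56.3 and 37.6% (SDs of 0.812, 2.33 and 3.09), and the Dnajc5 53-base exon ran the other way at 12.4, 18.7 and 35.4% (SDs of 1.16, 0.927 and 4.02). Dnajc5-202, which skips the 75-base exon, held 0% of the gene's TPM in wild-type and 6.26 ± 5.43% in WT transgene soma. The transgene libraries were quantified over 133618 transcripts and the others over 135181, and the part of this was not tested. Poldip3 in the wild-type and WT transgene groups differed by less than 3 points with SDs of 0.940 and 1.91. The Tnik 87-base exon was at 31.8, 14.8 and 7.21% in CAD with SDs of 2.65, 0.686 and 4.43, and at 7.86 and 32.8% in knockout and wild-type N2A soma. The 24-base and 165-base exons of Tnik showed no such order, at 30.8, 31.7 and 30.0% and at 99.6, 100 and 100%. The 104-base exon was in rising order at 61.4, 62.3 and 66.1%, with SDs of 2.45, 3.82 and 7.26. The Q331K soma group, at 1429 TPM of Tardbp, held Sort1 at 38.0%, Poldip3 at 98.6%, the Dnajc5 75-base and 53-base exons at 37.8 and 34.2% and the Tnik 87-base exon at 4.23%. No test was made between experiments.

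**Figure D5:**
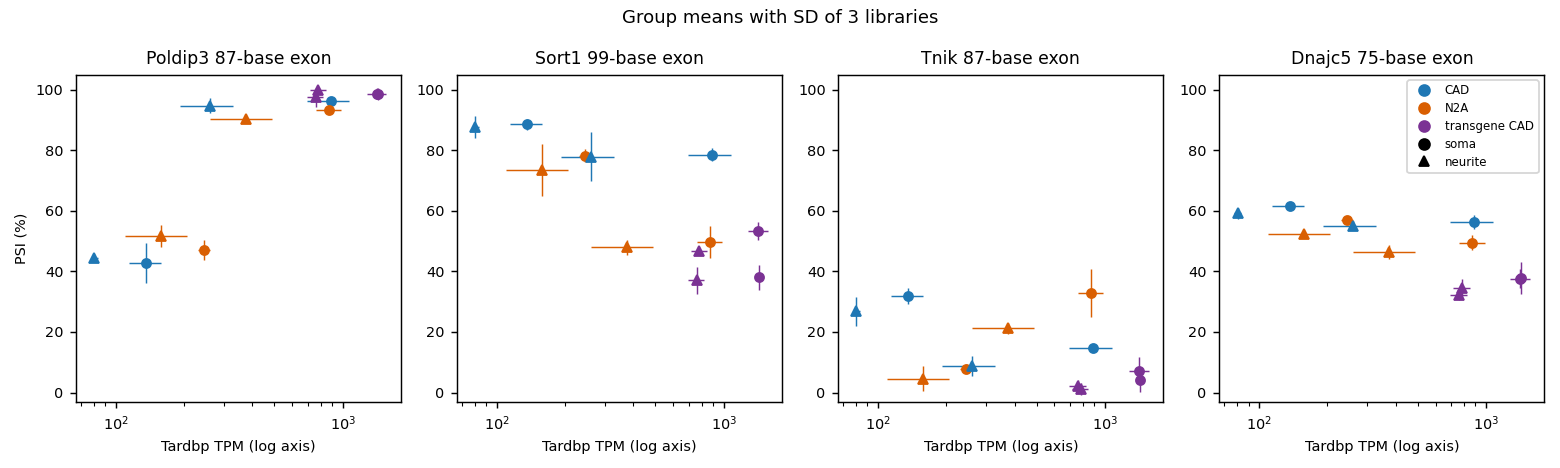
Mean PSI (percent) of 4 exons against mean Tardbp TPM (log axis) for the 12 groups, with SD of 3 libraries as bars. Tardbp TPM is a level of RNA and not of TDP-43 protein. Circles are soma, triangles are neurites, and colours mark the cells, so that each colour holds both genotypes. The 4 knockout groups, at 80.5 to 245 TPM of Tardbp over both compartments, hold Poldip3 at 42.7 to 51.7%. Within each compartment, the wild-type group has more Tardbp than the knockout group, and its Tnik exon is higher in N2A and lower in CAD. TPM is not compared between circles and triangles.

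Neurites and soma of the wild-type cells were compared to ask where the isoforms lie. Of the member exons 1 of 8 was called in CAD (11.2% of all exons were), 4 of 9 in N2A (14.7%) and 2 of 8 in the WT transgene line (11.5%). The Tnik 165-base exon was called in all 3 with a PSI difference of 0 points, since its ratio has no skipped TPM in those groups and follows the level of the gene alone. Calls at 0.0 PSI points also occurred in other genes, such as a 66-base exon of Brd8 in CAD and a 93-base exon of Ppfibp1 in the transgene line. How many of all called exons were of this kind was not counted, so the percentages are not shares of exons whose inclusion differed. In N2A the Tnik 104-base exon with the stop codon was higher in neurites, at 76.4, 79.8 and 72.5% against 52.0, 61.1 and 60.3% in soma (log2 ratio 1.13 ± 0.23, limma adjusted p = 0.00918). The Tnik 24-base exon was lower in N2A neurites, at 22.8, 19.4 and 22.0% against 36.5, 36.2 and 33.3% (log2 ratio -0.90 ± 0.17, adjusted p = 0.00833). Neither pair of groups overlapped. The ratio of the 104-base exon also carries the longer 3′ end of Tnik-207. In CAD the 104-base exon had means of 62.3% in soma and 67.3% in neurites and the 24-base exon 31.7 and 26.4%, and in the transgene line 66.1 and 76.6%, and 30.0 and 18.2%, with no call. The Poldip3 96-base exon was higher in N2A neurites (97.1 against 79.2%, adjusted p = 0.031). Its skipped transcript, Poldip3-203, had only 1.83, 0 and 6.19 estimated counts in neurites and 9.42, 12.2 and 10.9 in soma. In the transgene line the Sort1 exon was lower in neurites (log2 ratio -0.94 ± 0.26, adjusted p = 0.0433), a call lost when exons of any level were tested (adjusted p = 0.057). With 2 libraries per group these 4 calls were lost whichever replicate was left out.

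By usage, 0 of 20 member transcripts differed between wild-type neurites and soma in CAD (1.78% of all transcripts did), 4 of 23 in N2A (12.1%) and 0 of 19 in the transgene line (0.609%). In N2A, 3 of these were the Poldip3 transcripts that retain an intron. Poldip3-204 went from 7.14% of the gene's TPM in soma to 1.40% in neurites, Poldip3-205 from 5.31 to 1.14% and Poldip3-206 from 7.30 to 0.704%, with usage lower by 2.43 to 3.5 on the log2 scale (edgeR adjusted p = 0.0377, 0.0055 and 0.00227), where the median over all transcripts tested was -0.37. With 2 libraries per group the call of Poldip3-206 was kept, that of Poldip3-204 was lost whichever replicate was left out, and that of Poldip3-205 was lost without replicate 1 or 2. In CAD the same transcripts held 4.26, 3.56 and 3.37% in soma and 1.69, 1.27 and 1.20% in neurites. Nuclear RNAs moved the same way: Malat1, Neat1, Meg3 and Kcnq1ot1 were lower in N2A neurites by 1.60 to 2.93 on the log2 scale, all 4 called, and 3 of the 4 were called lower in CAD, and none of the 3 tested was called in the transgene line. There the shares of Poldip3-204, Poldip3-205 and Poldip3-206 were 2.22, 2.53 and 0.498% in soma and 1.91, 1.07 and 0.852% in neurites. The part of these RNAs in the compartment results was not tested. The N2A call for Tnik-206 rested on 1 soma library, replicate 2, which alone listed it above 0, and was lost without it. At the gene level 2 of 4 members differed in CAD (54.2% of all genes did), 4 of 4 in N2A (71.8%) and 1 of 4 in the transgene line (39.5%). Sort1 was lower in neurites of all 3, by 0.46, 1.12 and 0.61 on the log2 scale, and Tnik in CAD by 0.44 and in N2A by 0.36. Dnajc5 and Poldip3 were higher in N2A neurites by 0.51 and 0.58.

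Other genes were read from 2 lists. The first held 12 further genes whose exons are known to respond to TDP-43, of which 8 had exons tested, 22 in CAD and 23 in N2A. In CAD soma, CAD neurites and N2A soma 1 of these exons rose and 0 fell, and in N2A neurites 2 rose and 0 fell. The exon that rose in all 4 was the 60-base exon of Eif4h, a helper of translation initiation, by 34.6, 30.0, 30.8 and 28.7 PSI points (limma adjusted p = 0.000707, 0.00169, 0.00243 and 0.00555). The other was a 33-base exon of Ppfibp1, a liprin of cell junctions, by 13.9 points in N2A neurites (adjusted p = 0.0449). The median log2 ratio over the listed exons was -0.07, -0.18, -0.10 and 0.08, against -0.09, -0.05, -0.07 and 0.00 over all exons. At the gene level 4 of 11 rose and 1 fell in CAD soma, 5 and 1 in CAD neurites, 2 and 1 in N2A soma, and 1 and 0 in N2A neurites, where 32.7, 36.1, 29.3 and 21.0% of all genes were called in either direction. Among those that rose was Bcl2l11, a promoter of apoptosis, by 0.97 and 1 on the log2 scale in CAD. None of these exons or genes was called for Q331K.

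The second list held 19 relatives and partners of the 4 genes, of which 5 had exons tested, 18 in each line. None of the 18 exons was called in any knockout comparison. At the gene level 4 of 17 rose and 3 fell in CAD soma, 1 rose and 2 fell in CAD neurites, 5 of 15 rose and 0 fell in N2A soma, and 2 rose and 2 fell in N2A neurites, beside the same 32.7, 36.1, 29.3 and 21.0% of all genes. Sorcs2, a receptor related to sortilin, rose by 0.90 and 0.69 on the log2 scale in CAD soma and neurites. Mink1, the kinase closest to Tnik with Map4k4, fell by 0.53 in CAD neurites, and Map4k4 rose by 0.36 in CAD soma, 0.62 in N2A soma and 0.29 in N2A neurites. Pold1, the catalytic subunit of DNA polymerase delta, rose by 0.46 in CAD soma and by 0.84 and 0.83 in N2A soma and neurites. The median log2 change over the listed genes was -0.08, 0.02, 0.20 and -0.12 in the same order of comparisons, against 0.00, 0.00, -0.02 and -0.01 over all genes.

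For each member exon the exon of another gene with the most similar inclusion was found over all 36 libraries, which share cells, genotypes and batches. The Eif4h 60-base exon was that exon for 3 of the 8: Pearson's r of the log2 ratio was -0.915 with the Poldip3 87-base exon, 0.88 with the Sort1 99-base exon and -0.901 with the Dnajc5 53-base exon, among 7779 to 7780 exons compared. The Dnajc5 75-base exon was most like an exon of Tmem33 (0.938), and the Tnik 87-base exon most like, with opposite sign, an exon of Lrrc49 (-0.792), the weakest of these values. The Tnik 104-base and 24-base exons were both nearest an exon of Mpg (-0.88 and 0.823), and the Tnik 165-base exon nearest one of Dnmt3a (0.944). These values describe the libraries and carry no test.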

How the data were processed

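Reads were trimmed with cutadapt and quantified per transcript with Salmon by the authors against mouse transcripts (mm10); versions are not given in the sources used here. The deposited tables hold, per the file headers, Salmon estimated counts and TPM (abundance per length, scaled to one total in every library) for each transcript of each library, and nothing else of them was used. All 33 member transcripts were found in every table by their identifiers in GENCODE M21, whose models and transcript sequences (GRCm38) gave names, exons and coordinates. The study's methods name another Gencode version for the quantification. Neighbouring intron sequence beyond retained-intron transcripts was not analysed here. Salmon divides reads by all bases in which transcripts differ, so an exon's ratio also carries other differences between its transcripts, which are 55 bases for Poldip3, 9 in Sort1-203 and 68 in Sort1-201, and 3042 and 3090 for the 53-base and 75-base exons of Dnajc5. For the 87-base exon of Tnik 221 further bases stand only in transcripts with it and 8207 only in those without, and for its 104-base and 24-base exons 5724 and 8309 only in those without. These counts set all transcripts with an exon against all without it. The 3′ end of Tnik-207, which Tnik-201 also holds, is therefore not counted for the 104-base exon.

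Samples were grouped by the labels. The member genes and the lists were chosen with earlier results of these data known. Transcripts with at least 5% of their gene's TPM in any group mean were described singly (20), and the other 13 reached 0 to 4.72%. All annotated cassette exons of the 4 genes past the level filter were described. Each experiment (12 libraries) was fitted with group means. Isoform usage was tested with edgeR (4.0.16, quasi-likelihood, diffSpliceDGE) on rounded estimated counts after filterByExpr and TMM, gene level with edgeR on counts summed to genes, and exon inclusion with limma (3.58.1, trend) on log2((included + 0.1)/(skipped + 0.1)) in TPM, for exons with at least 1 TPM of both together in every library. All p-values were adjusted by Benjamini-Hochberg over all features of a comparison, at an FDR of 0.05. Alternatives were DESeq2 (1.42.0), other filters and pseudocounts, other flanking sites, replicate number as a block, and leaving out each replicate. The difference between CAD and N2A was added after the data were seen. On data simulated for the CAD soma comparison, 78% of 200 transcripts changed 3-fold (39045 tested), 67.5% of 200 genes changed 2-fold (16832) and 61% of 200 exons changed 4-fold (5375) were recovered. The usage test also called 33 of 38085 unchanged transcripts, beside 156 changed ones recovered. The gene and exon tests called 4 of 16632 and 4 of 5175 unchanged features. Changed transcripts were drawn from those with a minor share of their gene. Simulated exons left out those with little spread or extreme ratios, and had TPM added. No 2 libraries of a group held identical tables, with at most 0.278% of expressed transcripts at the same value. Counts without a gene were at most 0.129% of a library. Same-numbered libraries deviated together (every r over 0.1) for the N2A soma genotype comparison (0.549, 0.122 and 0.324) and for CAD neurites against soma (0.135, 0.1 and 0.23). The numbers were taken to pair the libraries in these comparisons, from the data alone. In N2A soma, knockout library 2 correlated more with a wild-type library of another number (0.236), which leaves the pairing there uncertain.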

Additional observations from a re-analysis of the deposited data

Results flagged for a closer look

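The knockout changed the 87-base exon of Tnik differently in the 2 lines, by a test of the difference itself. The log2 inclusion ratio moved by 1.40 in CAD soma and -2.43 in N2A soma, a difference of 3.83 ± 0.59 (limma adjusted p = 0.00314), and by 1.76 and -2.36 in neurites, a difference of 4.12 ± 0.59 (adjusted p = 0.00245). Over the alternatives the adjusted p in soma reached 0.055 with a pseudocount of 0.01 TPM, and with a replicate left out it lay between 0.0506 and 0.243 over both compartments. The direction was shown by 3 of 3 knockout libraries in each of the 4 comparisons.

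The 99-base exon of Sort1 moved in opposite directions in soma and neurites of the Q331K line. Every Q331K soma library lay below every WT soma library and every Q331K neurite library above every WT neurite library, as groups do not overlap for 6.87% of all exons in soma and 6.24% in neurites. Neither change passed the test by itself (limma adjusted p = 0.684 and 0.999), and the difference of the changes was 1.45 ± 0.36 on the log2 scale. Its unadjusted p was 0.00268 and its adjusted p 0.641 (limma), so it did not pass across all exons.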

How the results depend on the processing

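Over all alternatives, 315 of the summary counts and tests kept their size or call, and 114 counts of called features moved by over 1.5 times. Of the tests, 30 lost their call, 2 gained one and 3 changed sign. Among values of single further transcripts, genes and exons 233 kept their call, 57 lost it and 1 changed sign. The fall of the Poldip3 87-base exon in CAD and in N2A soma and the rise of the Sort1 gene level kept their calls under every alternative run. The causes of the changes listed next were not tested, except that leaving out a replicate leaves 2 libraries per group.

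Exon counts moved with the pseudocount and the level filter. With a pseudocount of 0.01 TPM the exons called were 286 for the CAD compartment comparison (937 in the report's setting), 216 for CAD soma genotype (345), 10 and 6 for the CAD and N2A interactions (0 and 0), 17 for the interaction and 12 for neurites in the transgene line (5 and 3), and 17 for the soma difference between lines (43). With a pseudocount of 1 TPM they were 4471 for CAD compartment, 724 for CAD soma, 3 for the CAD interaction, 2894 for N2A compartment (1258), 299 for N2A soma (119), 2936 for the transgene compartment (1075), 2, 0 and 1 for the transgene interaction, neurites and soma (soma 9), and 68 for the soma difference between lines. With at least 5 TPM they were 343, 726 and 685 for the CAD, N2A and transgene compartments, 32 for N2A neurites (59), 3 for the transgene interaction, and 25 and 6 for the difference between lines in soma and neurites (neurites 23). With no minimum they were 2041 and 2454 for the CAD and N2A compartments, 5 for the N2A interaction and 39 for N2A neurites. With any flanking sites they were 2 for the transgene interaction and 1 for its neurites.

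Of the lead exons, Sort1 in CAD passed with a pseudocount of 1 TPM, at 0.93 in soma (adjusted p = 0.00782) and 0.77 in neurites (adjusted p = 0.0371). Sort1 in N2A neurites (1.59) lost its call with any flanking sites (adjusted p = 0.0504), with no minimum (0.0795) and, at 1.63, with a pseudocount of 0.01 TPM (0.0583). Tnik in N2A soma lost its call with no minimum (-2.43, adjusted p = 0.0613) and with a pseudocount of 0.01 TPM (-2.50, 0.183), and its soma difference between lines with a pseudocount of 0.01 TPM (3.92, 0.055).

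By DESeq2, usage was tested as the ratio of a transcript to the other transcripts of its gene. Transcripts called were 7604, 1691 and 1660 for CAD compartment, neurites and soma (742, 795 and 379 by edgeR), 15561, 860 and 1241 for N2A (5047, 362 and 261), and 965, 197 and 144 for the transgene line (178, 93 and 58). Genes called for Q331K were 47 in neurites and 11 in soma by DESeq2, and 207 and 192 by edgeR with no filter (0 and 0).

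With replicate number as a block, the N2A soma and CAD compartment comparisons, where the numbers were taken to pair the libraries, changed no call described here and no count by over 1.5 times. Elsewhere that rule was not met, and the labels do not say whether the numbers pair the libraries. There the block ended the calls of Sort1 in N2A neurites (1.59, limma adjusted p = 0.116) and of the Dnajc5 53-base exon in CAD soma (adjusted p = 0.0593). It also ended that of Sort1 in the transgene compartments (adjusted p = 0.0947). In the transgene line it gave 1 exon for the interaction, 1 for neurites and 4 for soma, and 96, 48 and 22 transcripts for compartment, neurites and soma.

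Leaving out each replicate in turn gave between 1 and 499 exons for CAD compartment, 0 and 1 for the CAD interaction, 19 and 50 for CAD neurites, 41 and 128 for CAD soma, 0 and 596 for N2A compartment, 0 and 5 for the N2A interaction, 0 and 9 for N2A neurites, 9 and 54 for N2A soma, 22 and 130, 0 and 5, 0 and 12, and 30 and 39 for transgene compartment, interaction, neurites and soma, and 6 and 13 in soma and 0 and 0 in neurites for the difference between lines. Genes called lay between 3693 and 5212 for CAD neurites, 3258 and 4835 for CAD soma, 1390 and 2832 for N2A neurites, 1530 and 5542 for N2A soma, 3292 and 5515 for the transgene compartments, 0 and 4 for transgene neurites and 0 and 5 for transgene soma. Transcripts called lay between 361 and 446, 412 and 531, and 196 and 282 for CAD compartment, neurites and soma, 1235 and 2541, 173 and 252, and 122 and 213 for N2A, and 97 and 123 for compartment and 26 and 40 for soma in the transgene line. Without each replicate the Tnik 87-base exon lay at 1.61 to 2.01 in CAD neurites, 1.32 to 1.53 in CAD soma and -2.70 to -2.16 in N2A soma, and its difference between lines at 3.69 to 4.03 in soma and 3.45 to 4.84 in neurites. Poldip3 in N2A neurites lay at -3.20 to -2.94, and Sort1 at 1.71 to 1.93 in N2A soma and 1.33 to 2.00 in N2A neurites. Values near 0 changed sign for the Dnajc5 75-base exon in the transgene line (-0.0187 to 0.26 in neurites, -0.0645 to 0.0801 in soma) and for the Tnik 87-base exon in transgene neurites (-1.60 to 0.0862). The usage of Tnik-206 between N2A compartments went from -9.34 to 0.0751, the latter without replicate 2.

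Estimated counts of Sort1-201 in CAD neurites were 129.5 to 322, and those of Tnik-206, where it was listed above 0 in CAD and N2A, 156 to 625. Tnik-205 had 0 to 350.7 in CAD and N2A neurites, and Poldip3-202 had 88.1 in 1 wild-type CAD neurite library, and such depths limit the ratios built on them.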
